A study of Mus musculus with 24 samples.

Results

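Receptors for GABA, glycine and glutamate set how a neuron answers its neighbours, and they were followed here gene by gene in the neonatal mouse cerebellum. The members are the genes whose symbols name a subunit of an ionotropic or metabotropic receptor for one of these transmitters, and the rule found 52 of the 55416 gene rows in the table. Poly(A) RNA was sequenced from C57BL/6J mice, 12 in the Ethanol group and 12 in the Vehicle group. Ethanol animals were gavaged with ethanol at 4 g/kg/day in intralipid from postnatal day (P) 4, Vehicle animals received intralipid with water in place of ethanol, and tissue was taken 1 day after the last dose at P5 or P6. Every animal of both groups was therefore handled, gavaged and given the lipid. Beside the treatment, the labels hold only an animal number, different for each library, and neither age, sex nor litter, so P5 and P6 animals were compared together. The labels call the tissue brain and the study cerebellum.

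GABA-A and glycine receptors are pentameric chloride channels, AMPA, kainate, NMDA and delta receptors are tetramers of the glutamate receptor family, and GABA-B and metabotropic glutamate receptors act through G proteins. Subunit composition changes as the cerebellum matures: granule neurons gain the GABA-A subunits alpha6 and delta and the NMDA subunit GluN2C after birth, while alpha2, alpha3 and GluN2B belong to earlier stages. Ethanol is known to enhance GABA-A and glycine receptors and to inhibit NMDA and kainate receptors, and these receptors are therefore of interest in ethanol exposure of the developing brain.

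Library totals ranged from 26982564 to 38804942 estimated counts in Ethanol animals and from 29039888 to 38696615 in Vehicle animals. Values are CPM, estimated counts scaled to a common library size, with factors from the trimmed mean of M-values (TMM). Differences are log2 fold changes of Ethanol over Vehicle with their standard error, from the quasi-likelihood test of edgeR, with p-values corrected across the 17736 tested genes (Benjamini-Hochberg). An adjusted p under 0.05 was the threshold.

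Some libraries stood apart. The choroid plexus gene Ttr was nearly absent from 2 Ethanol libraries (X4568 and X4766) and 2 Vehicle libraries (X4761 and X4770). A list of 15 markers of hindbrain outside the cerebellum, mostly Hox genes of the brainstem and spinal cord, summed to 0.384 to 25.6 CPM over Ethanol animals (median 3.56) and to 0.413 to 81.4 CPM over Vehicle animals (median 3.44). Vehicle X4677 with 66.8 CPM and Vehicle X4762 with 81.4 CPM were above all others, followed by Ethanol X4765 with 25.6 CPM and Ethanol X4681 with 21.5 CPM. Granule neuron and Purkinje cell markers were present in every library, with summed levels of 4389 to 5595 CPM in Ethanol and 4240 to 5810 CPM in Vehicle animals for 12 granule neuron markers and of 1563 to 1841 CPM in Ethanol and 1691 to 2025 CPM in Vehicle animals for 12 Purkinje cell markers. In bulk RNA, fewer cells of a type and less RNA per cell cannot be told apart.

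Of the 52 members, 45 were abundant enough to be tested. None was called higher in Ethanol animals, where 9.07% of all genes tested were, and 2 were called lower, the kainate receptor subunit Grik1 and the AMPA receptor subunit Gria1, where 5.80% of all genes tested were. At an unadjusted p under 0.05 stood 6 members (13.3%, against 28.4% of all genes), 1 higher and 5 lower. The median log2 fold change was -0.01 over the 45 members and -0.01 over all genes. It was above zero for 35.6% of the members, against 47.7% of all genes tested. The 95% interval lay wholly within 0.2 of zero on the log2 scale for 23 of the 45, a count not made over all genes. Wide intervals belonged to low or variable genes such as Gabra6, Gabrd, Gabra5 and Glra3.

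**Figure D1:**
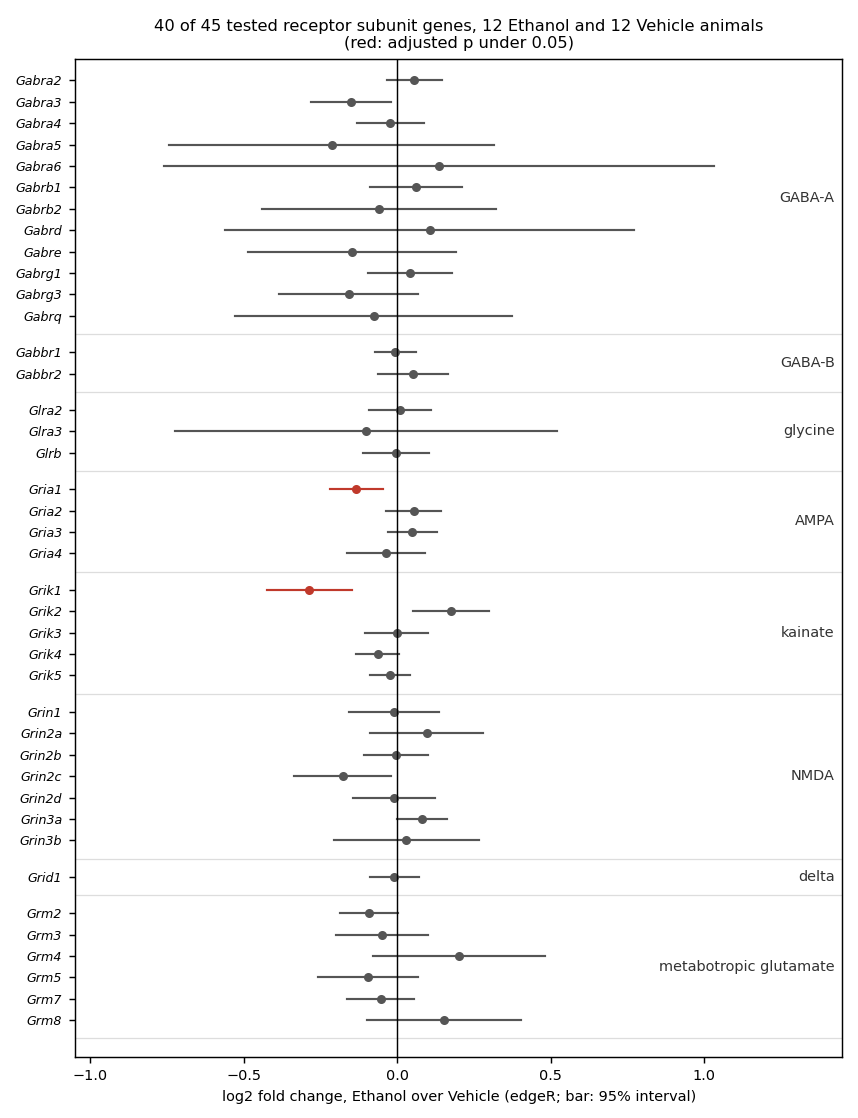
Log2 fold change of Ethanol over Vehicle (x axis) with its 95% interval for 40 of the 45 tested subunit genes (rows, grouped by receptor class); red marks an adjusted p under 0.05. The 2 red genes, Grik1 and Gria1, lie left of zero, and the widest intervals are those of low or variable genes such as Gabra6.

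Among the members, 1 kainate receptor gene, Grik1, carried the clearest difference. Grik1 encodes GluK1, a pore-forming kainate receptor subunit. Its level was 20.5 CPM at the lowest, 23.5 at the median and 27.8 at the highest in Ethanol animals, against 22.7, 28.0 and 37.6 CPM in Vehicle animals. All 12 Ethanol animals lay below the Vehicle median and 4 lay below the lowest Vehicle animal, while 6 Vehicle animals lay above the highest Ethanol animal. The means were 23.8 ± 2.49 CPM in Ethanol and 29.0 ± 4.08 CPM in Vehicle animals (SD, n = 12 each), a log2 fold change of -0.29 (SE 0.067, edgeR adjusted p = 0.00504).

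The highest 2 values of Grik1 were those of the Vehicle libraries with most hindbrain markers, 37.6 CPM in X4677 and 34.8 CPM in X4762. The other 10 Vehicle animals ranged from 22.7 to 31.2 CPM (27.5 ± 2.43, SD). Without those 2 libraries the log2 fold change of Grik1 was -0.22 (edgeR adjusted p = 0.0149), and without the 4 libraries with over 20 CPM of hindbrain markers it was -0.23 (adjusted p = 0.0210). Grik1 was lower in Ethanol animals under each of the 41 alternatives run, with adjusted p-values between 0.000755 and 0.0244.

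The animal numbers fall into 6 runs of 4 adjacent numbers, with 2 Ethanol and 2 Vehicle animals in each. By the study's design, 6 litters each gave 1 male and 1 female per treatment, but no source ties an animal number to a litter or an age. Within the runs, Ethanol minus Vehicle on the log2 scale for Grik1 was -0.22, -0.57, -0.13, -0.19, -0.33 and -0.21 from run 1 to run 6. It was below zero in 6 of 6 runs, most so in run 2 and run 5, which hold Vehicle X4677 and Vehicle X4762.

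Grik2, which encodes the kainate receptor subunit GluK2, was the most abundant kainate subunit by mean CPM over both groups, and its values lay on the other side. It stood at 110, 140 and 154 CPM (lowest, median, highest) in Ethanol animals, against 99.3, 122 and 152 CPM in Vehicle animals. The Vehicle median was exceeded by 10 of 12 Ethanol animals. The log2 fold change was 0.17 (SE 0.060), with an adjusted p of 0.0517 in edgeR, so Grik2 missed the threshold. It was past the threshold in 13 of 41 alternatives, among them DESeq2 (adjusted p = 0.0326) and the fit with the runs as a block (adjusted p = 0.0132), and adjusted p-values over all alternatives ranged from 0.00899 to 0.213. Within runs the difference was 0.43, 0.02, 0.17, 0.27, 0.16 and -0.01 from run 1 to run 6.

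Taken within an animal, the log2 ratio of Grik1 to Grik2 was -2.51 ± 0.226 in Ethanol and -2.05 ± 0.285 in Vehicle animals (SD, n = 12 each), and 12 of 12 Ethanol animals lay below the Vehicle median. This ratio was chosen after the values of both genes were seen and is a description. The log2 ratio of Grik1 to Grik5, the subunit GluK5 that needs another kainate subunit to form a channel, was -2.34 ± 0.189 in Ethanol and -2.09 ± 0.209 in Vehicle animals. The other kainate subunits, Grik3, Grik4 and Grik5, had log2 fold changes of -0.06 to -0.00 and none was past the test.

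**Figure D2:**
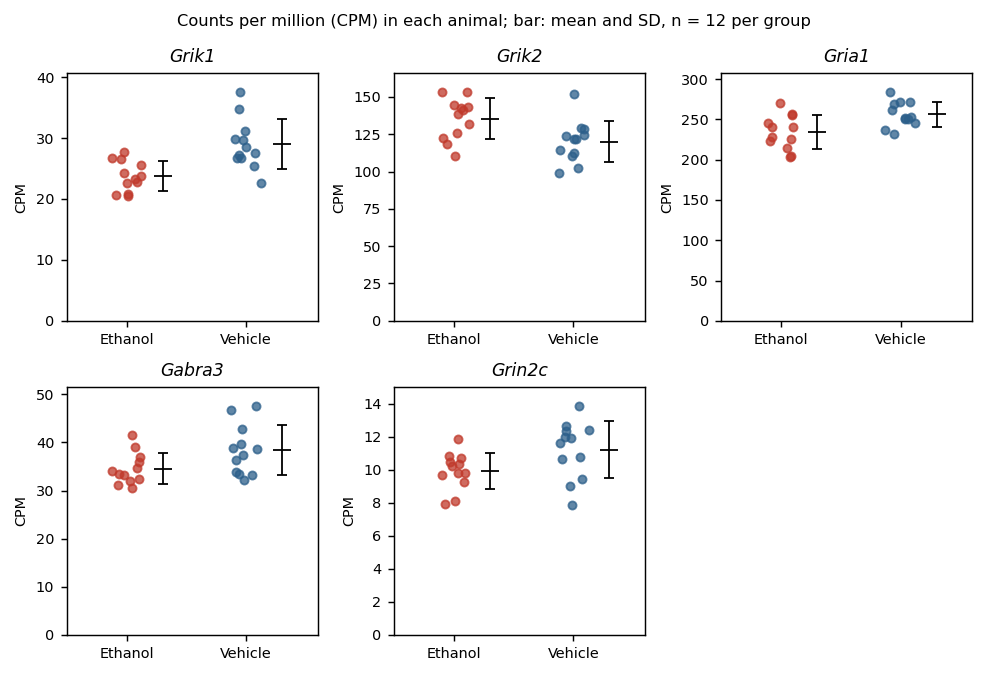
CPM of 5 subunit genes (y axes, each from 0) in each Ethanol animal (left, red) and Vehicle animal (right, blue); the bar gives the mean and SD of 12 animals. These are 5 of the 6 members with an unadjusted p under 0.05; for Grik1, all Ethanol points lie at 27.8 CPM or below and 6 Vehicle points lie above.

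Among AMPA receptor subunits, which carry fast excitation, Gria1 was lower in Ethanol animals. Gria1 encodes GluA1, found in Bergmann glia as well as in neurons of the cerebellum. It ranged from 203 to 270 CPM (median 234) in Ethanol animals, against 232 to 284 CPM (median 253) in Vehicle animals, and 6 Ethanol animals lay below the lowest Vehicle animal. The log2 fold change was -0.13 (SE 0.043, edgeR adjusted p = 0.0342), with means of 234 ± 21.1 CPM in Ethanol and 256 ± 15.5 CPM in Vehicle animals (SD, n = 12 each). Within runs the difference was -0.13, -0.27, -0.20, -0.08, -0.01 and -0.12 from run 1 to run 6, below zero in 6 of 6.

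The call of Gria1 was less steady than that of Grik1. It was past the threshold in 30 of 41 alternatives. It was lost with no filter on low counts (adjusted p = 0.0542), without the 4 libraries low in Ttr (0.0674), without the 4 libraries with over 20 CPM of hindbrain markers (0.0729), and without run 1 (0.0538), run 2 (0.0872), run 3 (0.139) or run 4 (0.0791). Single animals ended the call as well: Ethanol X4674 (adjusted p = 0.0579), Vehicle X4686 (0.0588), Vehicle X4761 (0.0544) and Vehicle X4768 (0.0528). The log2 fold change stayed between -0.16 and -0.11.

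Gria2 encodes GluA2, the subunit that makes AMPA channels impermeable to calcium, and was the most abundant AMPA subunit by mean CPM over both groups. It stood at 204, 254 and 284 CPM in Ethanol and at 221, 243 and 267 CPM in Vehicle animals (log2 fold change 0.05, SE 0.043, edgeR adjusted p = 0.454). The log2 ratio of Gria1 to Gria2 within an animal was -0.11 ± 0.193 in Ethanol and 0.07 ± 0.108 in Vehicle animals (SD, n = 12 each), and 6 Ethanol animals lay below the lowest Vehicle animal. Gria3 and Gria4 had log2 fold changes of 0.05 and -0.04 and were not past the test.

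Genes of other cell types moved in the same comparison, in which 9.07% of all genes tested were higher and 5.80% lower. Of 13 astrocyte and Bergmann glia markers, 6 were higher (Gfap, Aqp4, Slc1a2, Sox9, Aldoc and Hes5) and 2 were lower (Gdf10 and Hopx). The summed level of all 13 was 4609 to 5164 CPM in Ethanol and 4172 to 4862 CPM in Vehicle animals. Mean levels in Ethanol against Vehicle animals were 647 against 325 CPM for Gfap and 629 against 493 CPM for Aqp4. Slc1a3, the most abundant of the 13, was at 1426 against 1496 CPM and Aldh1l1 at 297 against 315 CPM, neither past the test. Fabp7, S100b and Timp4 had log2 fold changes of 0.01, 0.06 and 0.08 and were not past the test either. Of 12 Purkinje cell markers, 3 were lower (Pcp4, Car8 and Rora) and none was higher, and their ranges are those given above. Of 8 endothelial markers, 1 was higher and 4 were lower (summed level 306 to 359 CPM in Ethanol and 345 to 394 CPM in Vehicle animals). Of 10 microglia markers, 4 were higher and 2 lower (181 to 284 CPM in Ethanol and 165 to 232 CPM in Vehicle animals), and of 10 oligodendrocyte precursor markers, 2 were higher and none lower (828 to 993 CPM in Ethanol and 756 to 952 CPM in Vehicle animals). The 10 granule precursor and cell cycle markers had 2 higher and 1 lower, the 9 cerebellar interneuron markers 1 higher, and the granule neuron, choroid plexus and myelinating oligodendrocyte lists none in either direction. Of the 15 hindbrain markers, 5 were abundant enough to be tested. Of these, 1 was higher in Ethanol animals and none was lower, and the highest log2 fold change was 1.53. The part of these cell types in the values of Gria1 and Grik1 was not tested.

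GABA-A receptors mediate most fast inhibition, and before birth and shortly after it they depolarize many neurons. None of their 15 tested subunits was past the test. Gabra3, the alpha3 subunit of immature and brainstem neurons, stood at 30.4, 33.8 and 41.5 CPM in Ethanol animals, against 32.1, 38.1 and 47.7 CPM in Vehicle animals (log2 fold change -0.15, SE 0.063, edgeR adjusted p = 0.107). The highest 2 animals were again Vehicle X4677 at 47.7 CPM and Vehicle X4762 at 46.7 CPM, and without them the log2 fold change was -0.09 (adjusted p = 0.319). Without the 4 libraries with over 20 CPM of hindbrain markers it was -0.13 (adjusted p = 0.0894). Gabra3 was past the threshold in 2 alternatives, without run 6 (adjusted p = 0.0456) and without Ethanol X4681 (adjusted p = 0.0470).

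The values of Gabra5, the alpha5 subunit of extrasynaptic receptors, turned on the libraries with hindbrain markers. Gabra5 stood at 4.24, 7.81 and 14.4 CPM in Ethanol animals and at 5.31, 7.52 and 27.3 CPM in Vehicle animals. The 4 highest animals were Vehicle X4762 (27.3 CPM), Ethanol X4681 (14.4 CPM), Vehicle X4677 (14.2 CPM) and Ethanol X4765 (11.7 CPM), the same 4 that were highest in hindbrain markers. The log2 fold change was -0.21 over all animals (edgeR adjusted p = 0.641), 0.17 without Vehicle X4677 and Vehicle X4762 (adjusted p = 0.567), and -0.01 without all 4 libraries (adjusted p = 0.976). Gabrq, the theta subunit of brainstem and hypothalamic neurons, had the same 4 animals highest, 2.71 CPM in Vehicle X4677, 1.83 in Vehicle X4762, 1.68 in Ethanol X4765 and 1.46 in Ethanol X4681. Gabra5 and Gabrq were picked out here after their values were seen.

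**Figure D3:**
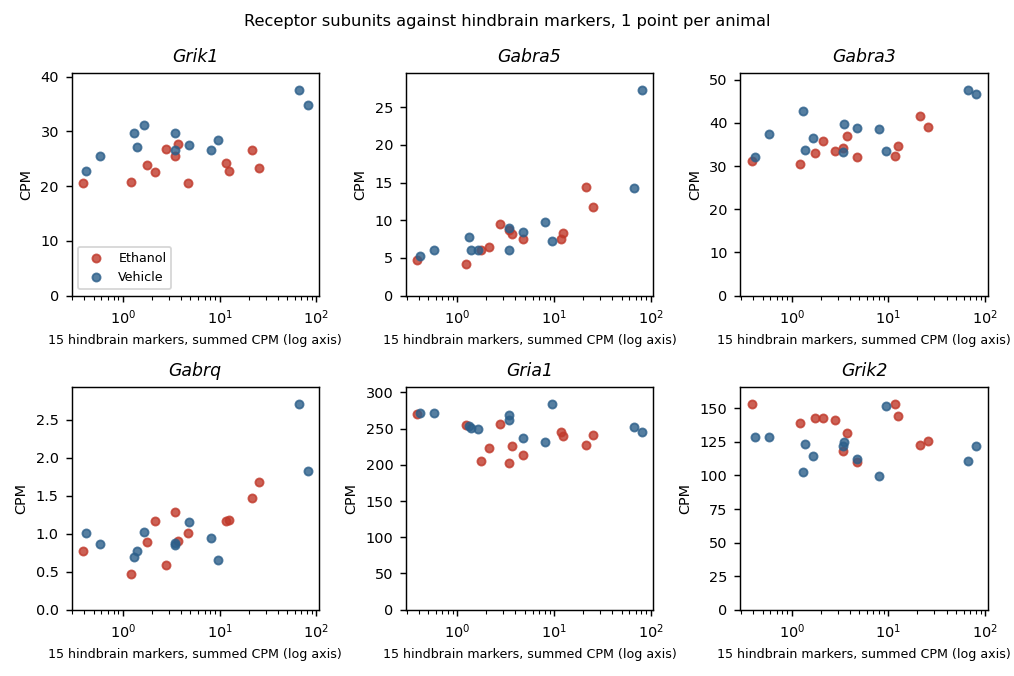
CPM of 6 subunit genes (y axes, each from 0) against the summed CPM of 15 hindbrain markers (x axis, log scale), with 1 point per Ethanol animal (red) and Vehicle animal (blue). The 2 points farthest right are Vehicle X4677 and Vehicle X4762, which are highest for Grik1 (37.6 and 34.8 CPM) and Gabra3 (47.7 and 46.7 CPM) and not for Gria1 or Grik2.

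The same 2 Vehicle libraries held the highest value of 13 of the 45 tested members, 9 in X4762 and 4 in X4677. Vehicle X4768 held the highest value of another 17, among them Gabra6, Gabrd, Gabrb2, Grm4, Grin1 and Grin2c, and Ethanol X4673 held the lowest value of 16. Many extremes of the receptor genes thus came from these few animals, with high values in the Vehicle libraries and low values in Ethanol X4673. The same count over all genes was not made. Without the 2 libraries over 50 CPM of hindbrain markers, edgeR called Gria1, Grik1 and Grin3a, and without the 4 over 20 CPM it called Grik1 and Grin3a.

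Grin3a encodes GluN3A, an NMDA receptor subunit of immature synapses that lowers calcium entry. It stood at 42.8, 47.2 and 53.3 CPM in Ethanol animals, against 40.8, 43.6 and 53.0 CPM in Vehicle animals. Of 12 Ethanol animals, 10 exceeded the Vehicle median. Over all animals its log2 fold change was 0.08 (SE 0.040, edgeR adjusted p = 0.190), without Vehicle X4677 and Vehicle X4762 it was 0.12 (adjusted p = 0.0185), and without the 4 libraries with over 20 CPM of hindbrain markers it was 0.12 (adjusted p = 0.0358). Grin3a was described after its value in that alternative was seen.

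None of the 7 NMDA receptor subunits was past the test over all animals. Grin2c encodes GluN2C, the subunit that granule neurons gain as they mature. It stood at 7.93, 10.01 and 11.9 CPM in Ethanol animals, against 7.88, 11.8 and 13.9 CPM in Vehicle animals, and 11 of 12 Ethanol animals lay below the Vehicle median. The log2 fold change was -0.18 (SE 0.077, edgeR adjusted p = 0.123). It was past the threshold in 2 alternatives, without the 4 libraries low in Ttr (adjusted p = 0.0414) and without Vehicle X4770 (adjusted p = 0.0303). Without Vehicle X4677 and Vehicle X4762 the log2 fold change of Grin2c was -0.15 (edgeR adjusted p = 0.228). Without the 4 libraries with over 20 CPM of hindbrain markers it was -0.13 (adjusted p = 0.382).

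Grin1, the obligatory subunit GluN1 and the NMDA gene of highest CPM, was 124 ± 15 CPM in Ethanol and 125 ± 17.3 CPM in Vehicle animals (SD, n = 12 each; log2 fold change -0.01, SE 0.071, edgeR adjusted p = 0.946). The log2 ratio of Grin2a to Grin2b, which rises as NMDA receptors mature, was -3.29 ± 0.209 in Ethanol and -3.39 ± 0.156 in Vehicle animals. The log2 ratio of Grin2c to Grin2b was -3.20 ± 0.217 in Ethanol and -3.04 ± 0.271 in Vehicle animals. Both ratios overlapped between the groups and are given with no test.

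The delta receptors bind cerebellins at synapses of the cerebellum. Grid1 was 32.4 ± 2.08 CPM in Ethanol and 32.7 ± 2.16 CPM in Vehicle animals (SD, n = 12 each), a log2 fold change of -0.01 (edgeR adjusted p = 0.907).

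Glycine receptors are chloride channels of brainstem, spinal cord and young neurons. Glrb, the beta subunit that anchors them to gephyrin, was 61.7 ± 6.55 CPM in Ethanol and 61.9 ± 5.31 CPM in Vehicle animals (SD, n = 12 each; log2 fold change -0.00, SE 0.053, edgeR adjusted p = 0.973). Glra2, the fetal alpha subunit, was 32.4 ± 3.18 CPM in Ethanol and 32.2 ± 2.33 CPM in Vehicle animals. Glra1, the alpha subunit that replaces it in the adult brainstem and spinal cord, reached no more than 0.195 CPM in Ethanol and 0.310 CPM in Vehicle animals, and the highest value was in Vehicle X4762.

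The GABA-B receptor is an obligate dimer of the products of Gabbr1 and Gabbr2. Gabbr1 stood at 384, 412 and 447 CPM in Ethanol animals and at 395, 411 and 483 CPM in Vehicle animals (log2 fold change -0.01, SE 0.033, edgeR adjusted p = 0.917). Its 95% interval ran from -0.07 to 0.06, among the narrower ones of the members. Gabbr2 had a log2 fold change of 0.05 and was not past the test.

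Of the metabotropic glutamate receptors, 7 of 8 were tested and none was past the test. Grm4 encodes mGlu4, the presynaptic receptor of granule cell axons, and stood at 67.8, 92.4 and 129 CPM in Ethanol animals, against 62.6, 77.8 and 145 CPM in Vehicle animals (log2 fold change 0.20, SE 0.136, edgeR adjusted p = 0.356). Within runs its difference was 0.19, 0.19, 0.20, 0.38, 0.33 and -0.04 from run 1 to run 6. Grm2, Grm3, Grm5, Grm7 and Grm8 lay between -0.09 and 0.15.

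The 7 members below the filter were nearly silent. Summed over all 24 libraries, Gabrr2 had 209 estimated counts, Gabrr1 199, Glra1 68, Glra4 25, Gabrp 24, Grm6 22 and Gabrr3 13. Grm6, the receptor of retinal bipolar cells, and the rho subunits Gabrr1, Gabrr2 and Gabrr3, known from retina, are among them. Their differences were not tested.

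To compare levels between genes, CPM was divided by the merged exon length of each gene in kb. Gabbr1 was first with 53.6 ± 2.74 CPM per kb in Ethanol and 53.9 ± 3.26 in Vehicle animals (SD, n = 12 each). Gria1 followed with 38.7 ± 3.49 in Ethanol and 42.4 ± 2.56 in Vehicle animals, and Gria4 with 26.6 ± 3.14 in Ethanol and 27.2 ± 2.79 in Vehicle animals. Grik5 and Gabbr2 came next, and Gria4 and Grik5 differed by less than the sum of their SDs. The order per length differs from the order by CPM: Gria2, close to Gria1 by CPM, was at 16.3 ± 1.46 CPM per kb in Ethanol and 15.7 ± 0.976 in Vehicle animals, with merged exons of 15548 bases for Gria2 and 6043 bases for Gria1.

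**Figure D4:**
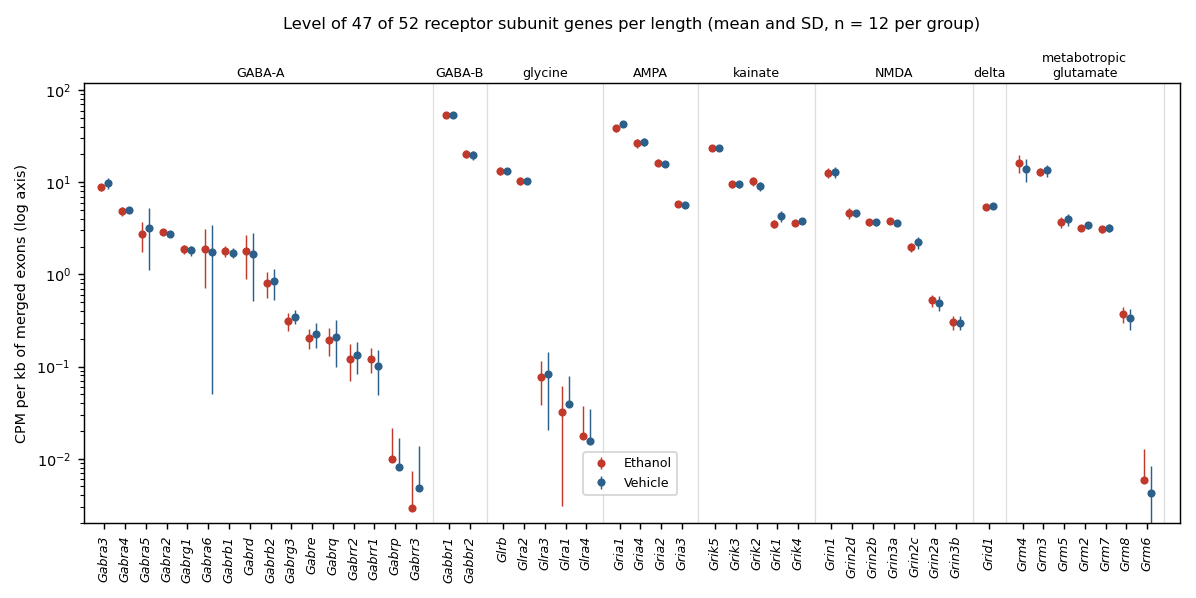
Level of 47 of the 52 subunit genes in CPM per kb of merged exons (y axis, log scale), grouped by receptor class and ordered by the Vehicle mean; points and bars are mean and SD of 12 Ethanol (red) and 12 Vehicle (blue) animals, and lower bars that would reach 0 are not drawn. Gabbr1 is highest at 53.6 in Ethanol and 53.9 in Vehicle animals, and Gabra6 and Gabrd have wide bars.

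Receptor genes varied between runs of animals apart from treatment. In a fit of treatment plus run, 10 of the 45 members (22.2%) differed between the 6 runs in the edgeR test, against 6.50% of all genes tested. Among them were Gabra6, Gabrd, Gria1, Gria4, Grik3, Grin1, Grin2b, Grm3 and Grm4. Without the 4 libraries low in Ttr, 4 members were past this test (Gabra6, Gabrd, Gria4 and Grik3), where 3.02% of all genes were.

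For Gabra6 and Gabrd the split fell between runs 1 to 3 and runs 4 to 6. Gabra6, the alpha6 subunit of granule neurons, averaged 1.62, 2.18 and 2.09 CPM in runs 1, 2 and 3, and 7.12, 6.31 and 7.76 CPM in runs 4, 5 and 6, both treatments together, a 4.77-fold range. Gabrd, its delta subunit partner in tonic inhibition, averaged 2.51, 2.90 and 2.90 CPM in runs 1 to 3 and 6.72, 6.49 and 8.45 CPM in runs 4 to 6, a 3.37-fold range. Both genes are known to appear in granule neurons as these mature. Grik3 and Grm3 ran the other way, with 92.9, 89.1 and 91.6 CPM for Grik3 in runs 1 to 3 and 78.3, 81.4 and 78.4 CPM in runs 4 to 6.

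Treatment and run could be separated, since each run holds 2 animals of each group. The Ethanol minus Vehicle difference of Gabra6 within runs was 0.35, 0.23, 0.16, 0.55, 0.46 and -0.31 on the log2 scale from run 1 to run 6, above zero in 5 of 6. In run 6, Vehicle X4768 stood at 16.2 CPM, the highest of all animals. Gabra6 was not past the treatment test (log2 fold change 0.14, 95% interval -0.76 to 1.03, edgeR adjusted p = 0.877). That fit held no term for run, so its interval takes in the spread between runs. With the runs as a block, only Gria1, Grik1 and Grik2 were past the treatment test among the members. Which runs were P5 and which P6 is not known from the sources used here, so the part of age in these values was not tested.

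**Figure D5:**
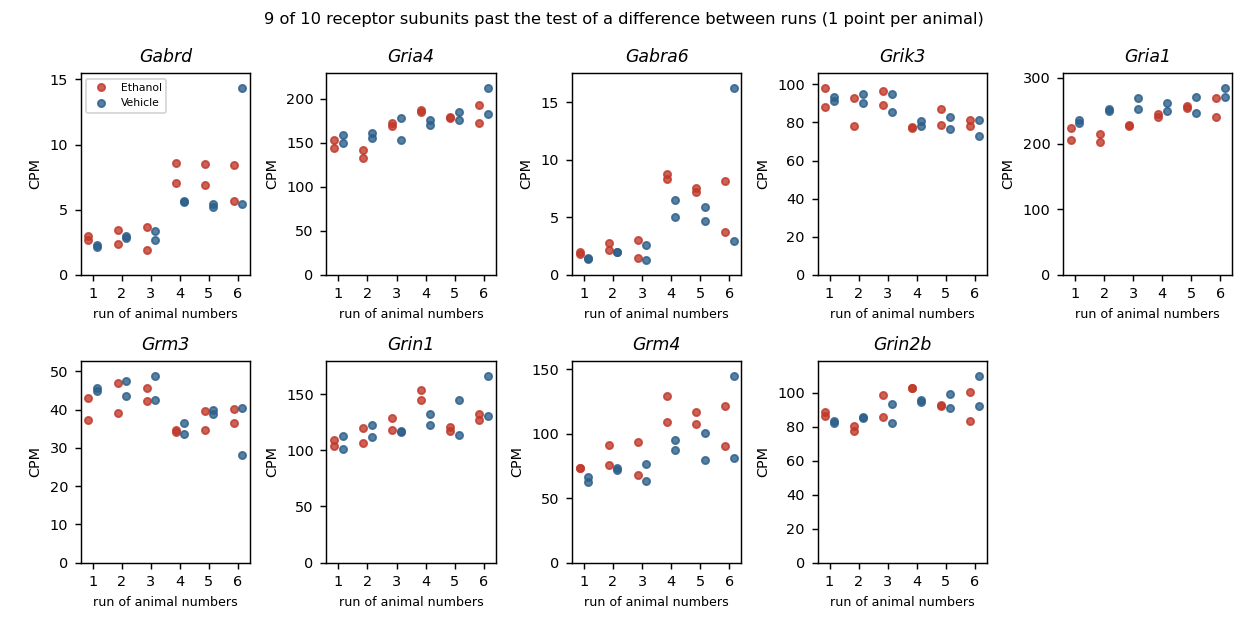
CPM (y axes, each from 0) of 9 of the 10 subunit genes past the test of a difference between runs, by run of animal numbers (x axis), with 1 point per Ethanol animal (red, left) and Vehicle animal (blue, right). Gabra6 and Gabrd are low in runs 1 to 3 (run means under 3 CPM) and higher in runs 4 to 6.

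The genes that supply, clear and anchor these transmitters and receptors were read from 7 lists of 102 companion genes, of which 101 were tested. Of these, 5 were higher in Ethanol animals (against 9.07% of all genes) and 2 lower (against 5.80%), with a median log2 fold change of -0.00 over the 101. Shmt2, the mitochondrial enzyme that makes glycine from serine, was 165 ± 32.3 CPM in Ethanol and 125 ± 5.30 CPM in Vehicle animals (SD, n = 12 each; log2 fold change 0.40, SE 0.080, edgeR adjusted p = 0.00148). Amt, a component of the glycine cleavage system, was higher by 0.11 (adjusted p = 0.0226). Shmt2 was past the threshold in all 41 alternatives and Amt in 35, with Amt lost without the 4 libraries low in Ttr, without run 1, run 3, run 5 or run 6, and without Ethanol X4568 (adjusted p up to 0.0725). Both belong to glycine and one-carbon metabolism. Gad1 and Gad2, which make GABA, had log2 fold changes of 0.03 and 0.16 (edgeR adjusted p = 0.550 and 0.163), with 9 and 10 of 12 Ethanol animals above the Vehicle median, and Slc32a1, which packages it, had 0.01.

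Slc1a2, the astrocytic glutamate transporter GLT-1, was 286 ± 21.5 CPM in Ethanol and 248 ± 19.5 CPM in Vehicle animals (SD, n = 12 each; log2 fold change 0.20, SE 0.043, edgeR adjusted p = 0.00193), higher than the Vehicle median in 11 of 12 Ethanol animals, and it was past the threshold in all 41 alternatives. The more abundant Slc1a3 of the same list was 1426 ± 76.2 CPM in Ethanol and 1496 ± 70.5 CPM in Vehicle animals. Its log2 fold change was -0.07 (edgeR adjusted p = 0.129), with 2 of 12 Ethanol animals above the Vehicle median. The summed level of the glutamate list had a median of 3032 CPM in Ethanol and 3016 CPM in Vehicle animals. Glud1, glutamate dehydrogenase, was higher by 0.08 (adjusted p = 0.0331), a call held in 20 of 41 alternatives and lost, among others, without the 4 libraries with over 20 CPM of hindbrain markers (adjusted p = 0.0709) and without any 1 of 13 animals, Vehicle X4677 among them. Slc1a2 is also 1 of the 6 astrocyte and Bergmann glia markers that were higher, and the part of astrocyte number in its value was not tested. Abhd6, a hydrolase that limits AMPA receptor trafficking, was higher by 0.13 (adjusted p = 0.0487). Its call held in 12 of 41 alternatives and was lost without the 2 libraries (adjusted p = 0.0694) and without the 4 libraries (adjusted p = 0.0669) with hindbrain markers, and without any 1 of 17 animals.

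The 2 lower genes were Lhfpl4, which binds GABA-A receptors at inhibitory synapses, and Camk2a, the alpha subunit of the calcium and calmodulin kinase of the postsynaptic density. Lhfpl4 was 167 ± 3.93 CPM in Ethanol and 175 ± 5.75 CPM in Vehicle animals (log2 fold change -0.07, SE 0.021, edgeR adjusted p = 0.0323). The call held in 32 of 41 alternatives and was lost with no filter (adjusted p = 0.169), without the 4 libraries low in Ttr (0.0913), without the 4 libraries with over 20 CPM of hindbrain markers (0.0709), without each run other than run 2 (0.0648 to 0.155) and without Ethanol X4765 (0.0696). Camk2a was 27.4 ± 1.86 CPM in Ethanol and 32.5 ± 6.85 CPM in Vehicle animals (log2 fold change -0.25, SE 0.079, adjusted p = 0.0356). Without Vehicle X4677 and Vehicle X4762 its Vehicle mean was 29.7 ± 1.19 CPM (SD, n = 10) and its log2 fold change -0.12 (adjusted p = 0.0315), and without the 4 libraries with over 20 CPM of hindbrain markers the call was lost at -0.12 (adjusted p = 0.0603). The Camk2a call held in 28 of 41 alternatives. It was also lost with no filter, with the runs as a block, without the 4 libraries low in Ttr, without each run other than run 1, and without Vehicle X4677 or Ethanol X4692, X4758 or X4766 (adjusted p up to 0.0946). Among the chloride transporters and their kinases, which set whether GABA excites or inhibits, no gene was past the test, and Wnk1 had the smallest p (log2 fold change -0.05, adjusted p = 0.249). Among the partners of delta receptors the smallest p was that of Cbln1, cerebellin 1 of granule cells (log2 fold change 0.10, SE 0.038, adjusted p = 0.0627).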

How the data were processed

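The authors sequenced poly(A) RNA and deposited estimated counts per gene, made with nf-core/rnaseq. STAR, Salmon, limma and the build GRCm39 appear in the submitters' processing notes with no version; annotation release and strandedness: not given in the sources used here. Because 10.9% of values differ from a whole number by more than 0.01, counts were rounded. Ethanol and Vehicle were compared in edgeR 4.0.16 under R 4.3.3 (filterByExpr, TMM factors 0.9822 to 1.013, robust glmQLFit, glmQLFTest with 22 residual degrees of freedom), tested first on simulated data. The SE came from the F statistic. The labels and the study describe different homogenizers and RNA kits. Exon lengths came from a GENCODE annotation of GRCm38, another build, so no coordinates are given. Members and lists were chosen with earlier results of these data known. Values were given for members past the test, members with an unadjusted p under 0.05, the member of highest mean CPM in each class, companion genes past the test, and the smallest p of a list with none; some of these genes are counted but not reported by name here. Alternatives were limma-trend and limma-voom (limma 3.58.1, prior count 2), DESeq2 1.42.0, RLE and upper-quartile scaling, no filter or 1 CPM in 12 libraries, runs as a block, and leaving out each animal, each run or the 4 libraries whose Ttr was under 4 on the log2 CPM scale. Both alternatives on hindbrain markers were added after the data were seen. Within-run values used log2 CPM with 0.5 added.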

Additional observations from a re-analysis of the deposited data

How the results depend on the processing

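The groups share no replicate number in the labels, so the only block fitted was that of the runs of animal numbers. Counts of receptor members called higher were 1 instead of 0 with limma-trend, limma-voom, DESeq2, the stricter filter, the runs as a block, without run 2 and without run 6 (Grik2 in each), and without run 5, without the 2 libraries over 50 CPM and without the 4 over 20 CPM of hindbrain markers (Grin3a in each). Members called lower were 1 with no filter, without the 4 libraries over 20 CPM of hindbrain markers, and without run 1, run 2, run 3 or run 4 (Gria1 lost in each). Leaving out single animals gave 0 to 1 members higher (1, Grik2, without Ethanol X4673, X4674, X4681 or X4765 or Vehicle X4761 or X4768) and 1 to 3 lower (3 without Ethanol X4681, which added Gabra3, and without Vehicle X4770, which added Grin2c). Of all genes, 662 were lower with no filter, 612 without the libraries low in Ttr, 633 without the 4 libraries over 20 CPM of hindbrain markers, 616 without run 1, 612 without run 3 and 499 without run 4, against 1028 over all animals. Companion genes called higher were 9 with the runs as a block, 3 with upper-quartile scaling, no filter or without run 1, run 4 or run 5, and 2 without run 3 or the libraries low in Ttr. Companion genes called lower were 1 with the block or without run 1 or run 2, and 0 with no filter, without the 4 libraries over 20 CPM of hindbrain markers, when the libraries low in Ttr were left out, and without run 3, run 4, run 5 or run 6. Leaving out single animals gave 3 to 10 companion genes higher (10 without Vehicle X4768, 3 without Ethanol X4568, X4692, X4758 or X4760 or Vehicle X4677, X4679, X4685, X4686, X4695 or X4770) and 1 to 3 lower (1 without Vehicle X4677 or Ethanol X4692, X4758, X4765 or X4766). Members that differ between runs were 4 without the libraries low in Ttr. Values near zero changed sign. For Gabbr1 the log2 fold change was 0.0014 without the libraries low in Ttr, 0.0021 without run 1, 0.0060 without run 5 and 0.0074 without run 6, and -0.0214 to 0.0133 without single animals. For Glrb it was 0.0021 with no filter, 0.0040 when the libraries low in Ttr were left out, 0.0258 and 0.0098 without the 2 and the 4 libraries with hindbrain markers, 0.0155 without run 1, 0.0280 without run 2, 0.0236 without run 5 and 0.0059 without run 6, and -0.0349 to 0.0195 without single animals. For Grin1 it was 0.0070 and 0.00080 without the 2 and the 4 libraries with hindbrain markers, 0.0113 without run 5 and 0.0357 without run 6, and -0.0425 to 0.0350 without single animals. The cause of these changes was not tested.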
